A study of Mus musculus with 40 samples.

Results

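A set of 93 genes, of 23120 in the deposited log2 expression table, was already lower in mouse liver at 1 μg/kg TCDD and stayed lower at every higher dose. Members were chosen by their measured values. The group means at 1, 3, 10 and 30 μg/kg each had to lie below the vehicle mean by at least the log2 of a 1.5-fold difference, and the vehicle mean had to be at least 7. Genes whose symbols start with Cyp, Mup or Serpina were left out, and 5 genes that met the other terms (Cyp2c40, Serpina7, Mup3, Cyp2d40 and Serpina1e) were dropped for that reason. RNA-Seq was run on livers of 40 male C57BL/6 mice, 5 in each of 8 groups. The mice had received sesame oil vehicle or TCDD at 30, 10, 3, 1, 0.3, 0.1 or 0.03 μg/kg by oral gavage every 4 days for 28 days, which is 7 administrations, from day 30 of age to day 58. All mice were of 1 strain and sex, all received sesame oil, and no genetic change was carried by any group. Livers were collected in the first hours of the light phase, so each value stands for 1 time of day and for whole tissue. Because the rule used the vehicle mice and the mice at 1, 3, 10 and 30 μg/kg, differences between those groups are given below as a description with no test. The mice at 0.03, 0.1 and 0.3 μg/kg did not enter the rule.

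The receptor for TCDD is AhR, the aryl hydrocarbon receptor, a transcription factor that after binding its ligand pairs with its partner ARNT and binds DNA elements with the core letters GCGTG. In liver AhR is best known for inducing enzymes of drug metabolism, among them Cyp1a1. Hepatocytes also carry the enzymes of sugar, lipid and amino acid metabolism and make most proteins of blood plasma. Liver-type pyruvate kinase and fatty acid elongases respond to feeding through insulin, glucose and nutrient-sensing factors, while Hsd3b5 and other male-biased genes depend on the pulsed release of growth hormone in males.

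Promoter sequence is shown for 4 members with large differences at 1 μg/kg, because the core of the AhR element can be read in it directly. RefSeq promoter windows (GRCm38.p6) were matched to 68 of the 93 members by symbol, and the 250 bases before the annotated start are printed 5′ to 3′ on the strand of the gene. Of the 10 protein-coding members with the largest differences at 1 μg/kg, 6 had windows, 9 in all, and 2 of the 9 held the letters. Both of these are printed, beside 2 of the windows without them, so the 4 are not a sample of the members. Capitals mark GCGTG, searched on both strands (CACGC on the other strand). Igfbp2 lies at chr1:72824230-72824479 on the plus strand and holds the letters 2 times, starting 155 and 132 bases before the start. Hsd3b5 lies at chr3:98645535-98645784 on the minus strand and holds them 1 time, starting 79 bases before the start. Pklr, at chr3:89136373-89136622 on the plus strand, and Cela1, at chr15:100687921-100688170 on the minus strand, have no match in these windows.
Igfbp2: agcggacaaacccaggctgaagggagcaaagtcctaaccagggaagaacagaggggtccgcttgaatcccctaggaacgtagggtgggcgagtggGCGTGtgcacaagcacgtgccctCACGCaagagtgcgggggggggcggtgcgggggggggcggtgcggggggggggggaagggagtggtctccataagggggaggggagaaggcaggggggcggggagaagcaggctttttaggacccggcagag
Hsd3b5: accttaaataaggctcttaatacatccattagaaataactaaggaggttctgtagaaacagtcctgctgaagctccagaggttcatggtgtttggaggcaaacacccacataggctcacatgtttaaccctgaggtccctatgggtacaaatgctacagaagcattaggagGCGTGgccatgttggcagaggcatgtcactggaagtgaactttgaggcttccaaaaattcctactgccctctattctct
Pklr: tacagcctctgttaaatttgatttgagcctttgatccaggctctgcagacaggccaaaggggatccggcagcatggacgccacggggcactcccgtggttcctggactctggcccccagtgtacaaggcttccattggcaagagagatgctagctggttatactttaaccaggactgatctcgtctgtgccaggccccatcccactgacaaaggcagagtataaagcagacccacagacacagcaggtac
Cela1: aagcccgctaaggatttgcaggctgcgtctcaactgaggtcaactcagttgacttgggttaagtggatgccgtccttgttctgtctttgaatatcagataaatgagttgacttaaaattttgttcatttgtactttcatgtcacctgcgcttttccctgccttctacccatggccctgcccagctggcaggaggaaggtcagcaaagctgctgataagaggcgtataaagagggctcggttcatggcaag
The same letters occur in 28.2% of all 32851 promoter windows of the table, counted over the same 250 bases. Among the 9192 windows of genes with a vehicle mean of at least 7 the share is 45.4%. A window was found for 73.1% of members, fewer than 80%, so a comparison of motif shares between members and other genes is void and is not given. A match is a description of letters and not evidence of binding.

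Libraries held 15.5 M to 21.0 M counts in genes, with a median of 17.5 M. Of the hepatocyte markers Alb, Apoa1, Ttr, Tf, Apoc3 and Fgb, 5 of 6 were tested, and their summed level was 95960 to 117000 CPM (gene counts scaled to a common library size) in vehicle livers. A single library stood apart in a way that touches a member. The library of mouse 5 at 0.1 μg/kg held 314 counts of the pancreatic trypsinogen Prss2, against at most 31 in any other library and 0 in 32 of 40. The pancreatic genes Cpa1, Cel and Pnlip, chosen after the values were seen, were also highest in that library, at 349, 322 and 581 counts against at most 19 in any other. The comparisons at 0.1 μg/kg are given with and without it. Adipoq, a marker of fat cells, was highest in mouse 4 at 0.1 μg/kg with 136 counts and was at 0 in 29 libraries.

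The difference between the members' group means and the vehicle means grew with dose. Over the 93 members the median difference on the log2 scale was -0.12 at 0.03 μg/kg, -0.22 at 0.1 μg/kg and -0.39 at 0.3 μg/kg, none of which the rule used. It was -0.76 at 1 μg/kg, -1.01 at 3 μg/kg, -1.56 at 10 μg/kg and -2.32 at 30 μg/kg, where the rule fixed the direction. Among the 9010 genes with a vehicle mean of at least 7 the median difference moved only from 0.00 at 0.03 μg/kg to -0.02 at 1 μg/kg and -0.11 at 30 μg/kg. Below 1 μg/kg, 72 members lay under the vehicle mean at 0.03 μg/kg, 84 at 0.1 μg/kg and 91 at 0.3 μg/kg. Without mouse 5 at 0.1 μg/kg, a setting added after the data were seen, 75 members lay under the vehicle mean at that dose, with a median of -0.23. These comparisons share their vehicle mice with the rule, so no support is drawn from them.

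**Figure D1:**
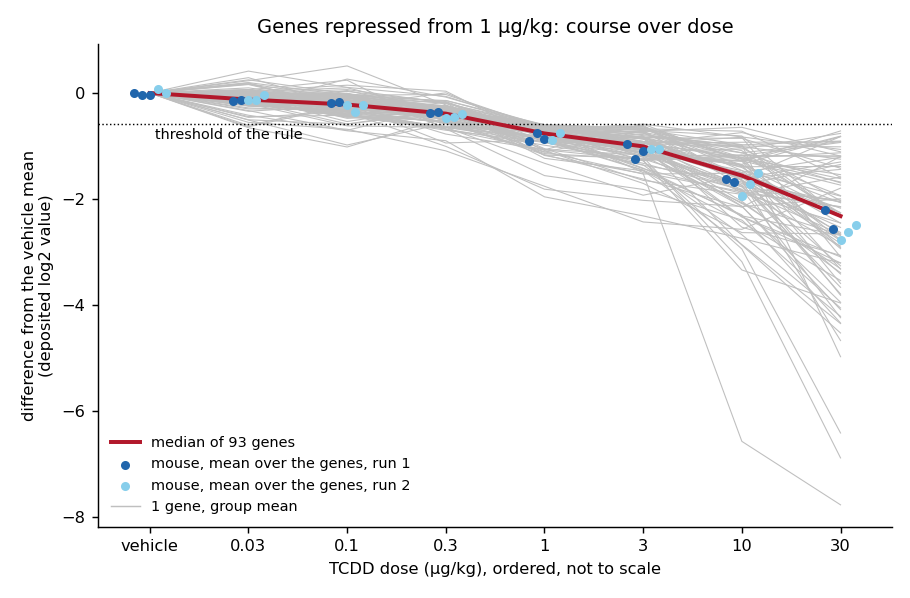
Difference from the vehicle mean in deposited log2 values (y axis) against TCDD dose in μg/kg, in order and not to scale (x axis). Grey lines are the group means of the 93 members, the red line is their median, and points are single mice averaged over the members, dark for title numbers up to 27 and light for later ones. The median goes from -0.12 at 0.03 μg/kg to -2.32 at 30 μg/kg, and the dotted line is the threshold of the rule.

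Averaged over the 93 members, single mice kept close to their group. The mean difference lay between -0.04 and 0.08 in the 5 vehicle mice and between -0.16 and -0.04 at 0.03 μg/kg. It lay between -0.36 and -0.17 at 0.1 μg/kg, between -0.47 and -0.36 at 0.3 μg/kg and between -0.90 and -0.76 at 1 μg/kg. The vehicle mice and the mice at 0.3 μg/kg did not overlap on this average. The vehicle mice also chose the members and set the zero of the scale, so nothing is read from that gap. The lowest mouse at 0.1 μg/kg (-0.359) lay just above the highest at 0.3 μg/kg (-0.364). At 30 μg/kg the range was -2.77 to -2.21.

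For most members the 1.5-fold margin held from 1 μg/kg on, the latest start that the rule allows. Taking for each gene the lowest dose from which it lay at least that far below vehicle at that and all higher doses, 77 members began at 1 μg/kg, 13 at 0.3 μg/kg and 3 at 0.1 μg/kg. By this measure the 3 earliest were Hcn3, H2-Q1 and Pde4b. The 13 that began at 0.3 μg/kg included Cela1, Pklr, Acnat2, Clic3, Paxx, Lhx6 and Avpr1a. Some other members passed the margin at a lower dose but not at every dose above it. Chrna4 was at -0.66 at 0.03 μg/kg, -1.02 at 0.1 μg/kg and -0.47 at 0.3 μg/kg. With the same terms, 142 further genes began at 3 μg/kg, 555 at 10 μg/kg and 1151 at 30 μg/kg. Just inside the threshold by their smallest difference were Tkfc (0.588 below vehicle), Creld2 (0.588) and Sult2a8 (0.596), and just outside it were Fgf1 (0.582), Tmie (0.582) and AC169509.1 (0.579). By vehicle level, Spsb4, Lhx6 and Lama3 were the lowest members at 7.07 to 7.11, and Cys1, Rcan2 and Gm36264 stayed out at 6.95 to 6.99.

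A comparison between dose groups outside the rule asked whether the members were already lower at 0.3 μg/kg than at 0.03 and 0.1 μg/kg. The fit took its filter, scaling and estimate of the spread from all 40 libraries, those of the rule included. Counts were tested by the quasi-likelihood test of edgeR over all 15373 genes with enough counts, and a gene was called at a Benjamini-Hochberg adjusted p under 0.05 with a fold of at least 1.5. No member was called lower, and neither was any other gene (0.0% of genes tested), while 26 genes were called higher. At an unadjusted p under 0.05, 15 members were lower and none was higher, with 279 genes lower in all. In the same comparison 84 of the 93 members had a negative log2 fold change, against 51.5% of all genes tested, with a median of -0.26 for members and -0.01 for all genes. Genes in which the same margin held only from 3, 10 or 30 μg/kg on had medians of -0.15, -0.07 and -0.03. Of these genes 86%, 76% and 62% were negative, against 90% of members. Without mouse 5 at 0.1 μg/kg, 83 members were negative, against 51.2% of all genes tested, with a median of -0.24. At an unadjusted p under 0.05, 10 members and 249 of 15757 genes were then lower. Without mouse 4 at 0.3 μg/kg these counts were 8 members and 275 of 15756 genes. The 5 tested hepatocyte markers, 2 of them members, had a median log2 fold change of -0.18 in this comparison. Their summed level was 81810 to 125900 CPM at 0.03 μg/kg, 86400 to 113100 CPM at 0.1 μg/kg and 79290 to 92510 CPM at 0.3 μg/kg, where all mice lay below all vehicle mice, and its part in the result was not tested.

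**Figure D2:**
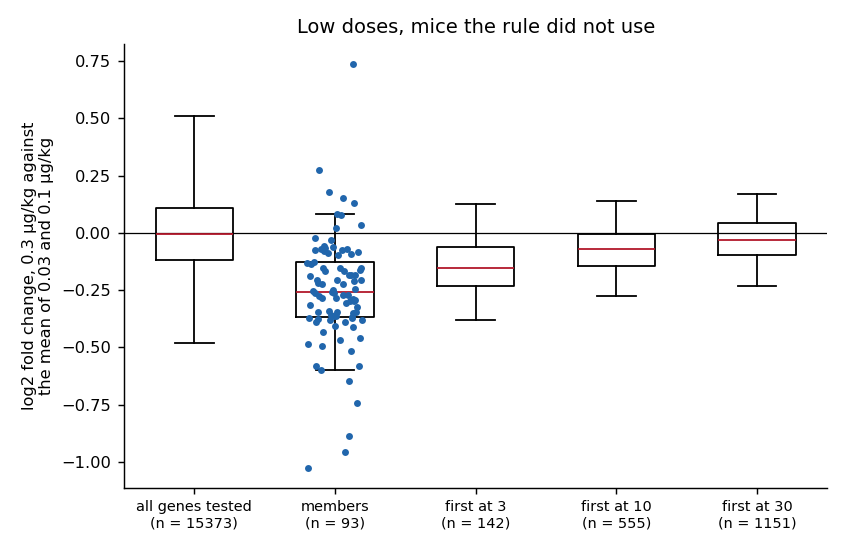
Log2 fold change from edgeR of 0.3 μg/kg against the mean of 0.03 and 0.1 μg/kg (y axis) by set of genes (x axis). The sets are all genes tested, the 93 members and the genes in which the margin held only from 3, 10 or 30 μg/kg on. Boxes span the quartiles with the median in red, whiskers reach the 5th and 95th percentiles, and points are members. The median was -0.26 for members and -0.01 for all genes.

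Cela1, a chymotrypsin-like elastase first known from pancreas and also present in liver, was the member nearest to a call in that comparison. Its level was 30.2, 23.8, 33.0, 35.7 and 36.0 CPM in the 5 mice at 0.03 μg/kg, and 21.9, 18.9, 21.5, 16.7 and 60.0 CPM at 0.1 μg/kg. At 0.3 μg/kg it was 15.8, 13.7, 15.2, 15.0 and 16.6 CPM. All 5 mice at 0.3 μg/kg lay below all 10 mice of the lower doses, which was the case for 2 members, Cela1 and Gm4952, and for 0.0781% of genes tested. The log2 fold change of Cela1 was -0.96 (SE 0.22) with an adjusted p of 0.0525 by edgeR. DESeq2 called it (adjusted p 0.00484), and so did 8 of the other alternatives, listed with the limits of the processing. The value of 60.0 CPM belongs to the library with 314 Prss2 counts, which every setting that called Cela1 kept. Without that library the log2 fold change was -0.71 with an adjusted p of 0.0792 by edgeR. Next was Cxcl12, a chemokine that binds the receptor Cxcr4, at -0.32 with an adjusted p of 0.0932. Prss2 was at 0 in all 10 libraries at 0.03 and 0.3 μg/kg. Other pancreatic genes were not all at 0 there, with up to 4 counts of Pnlip at 0.03 μg/kg and 5 at 0.3 μg/kg, and up to 2 of Cel at 0.3 μg/kg.

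Between 0.1 and 0.03 μg/kg no member was called either, nor was any gene called lower (0.0% of genes tested, edgeR). At an unadjusted p under 0.05, 3 members were lower and none was higher, and 296 of the 15373 genes tested were lower. A negative log2 fold change was found for 63 members, against 51.0% of all genes tested, with a median of -0.09 for members and 0.00 for all genes. Without mouse 5 at 0.1 μg/kg, 61 members were negative, against 49.8% of all genes tested, with a median of -0.12. At an unadjusted p under 0.05, 2 members and 335 of 15757 genes were then lower. Without mouse 3 at 0.03 μg/kg these counts were 0 members and 301 of 15705 genes.

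Enzymes of sugar metabolism made up 6 members. Pklr, the liver pyruvate kinase that ends glycolysis, had the largest difference of these at 1 μg/kg. Its level in the 5 vehicle mice was 240, 233, 150, 241 and 210 CPM, and at 0.3 μg/kg it was 150, 154, 138, 127 and 96.7 CPM. At 1 μg/kg the 5 values were 72.6, 77.7, 67.1, 63.0 and 75.0 CPM, all below the lowest vehicle mouse, and the mean of 71.1 ± 5.98 CPM (SD, n = 5) was 3.02-fold lower than in vehicle. The mean went on to 13.9 ± 12.0 CPM at 30 μg/kg.

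Of the enzymes that bring fructose into the triose pool, Khk and Tkfc were members. Khk, which phosphorylates fructose, went from 512 ± 11.7 CPM in vehicle to 283 ± 37.8 CPM at 1 μg/kg and 45.2 ± 32.1 CPM at 30 μg/kg (SD, n = 5). Tkfc, which phosphorylates glyceraldehyde, had 510, 448, 384, 421 and 393 CPM in vehicle and 281, 280, 251, 255 and 265 CPM at 1 μg/kg, with no overlap, and it remained at 207 ± 44.6 CPM at 30 μg/kg. Gpd2, the mitochondrial glycerol-3-phosphate dehydrogenase, had its lowest mean at 10 μg/kg, with 38.3 CPM in vehicle, 21.2 CPM at 1 μg/kg and 11.5 CPM at 10 μg/kg. Pck1, which commits carbon to gluconeogenesis, varied widely between mice. It ranged from 754 to 2254 CPM in vehicle and from 455 to 1998 CPM at 1 μg/kg, so the groups overlapped.

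Lipid and acyl metabolism accounted for 9 members, with a median difference of -0.69 at 1 μg/kg. Crat, the carnitine acetyltransferase that buffers acetyl-CoA, had 66.0, 70.4, 68.2, 54.4 and 80.1 CPM in vehicle. At 0.3 μg/kg it had 53.1, 44.0, 48.9, 44.5 and 36.1 CPM, and at 1 μg/kg 37.6, 26.0, 28.6, 30.9 and 24.2 CPM. All mice at both doses lay below all vehicle mice. The lowest mean was 13.8 ± 1.40 CPM at 10 μg/kg, and at 30 μg/kg it was 31.6 ± 16.3 CPM, with single mice from 11.5 to 53.8 CPM. Acnat2, a peroxisomal acyl-CoA N-acyltransferase with a close paralog, Acnat1, had 20.3, 38.1, 19.5, 14.0 and 34.2 CPM in vehicle and 5.69, 16.1, 7.50, 8.70 and 6.77 CPM at 1 μg/kg. Only 1 mouse at 1 μg/kg lay within the vehicle range.

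The fatty acid elongases Elovl2 and Elovl6 differed in spread. Elovl2, which acts on polyunsaturated chains, went from 635 ± 38.1 CPM in vehicle to 417 ± 33.1 CPM at 1 μg/kg and 117 ± 32.5 CPM at 30 μg/kg (SD, n = 5). Elovl6, which extends the palmitate made by lipogenesis, had 156, 72.5, 59.6, 91.5 and 83.6 CPM in vehicle and 48.0, 36.4, 47.3, 61.3 and 42.3 CPM at 1 μg/kg, and 1 mouse at 1 μg/kg lay above the lowest vehicle mouse. Insig2, which holds the sterol-sensing SCAP and SREBP proteins in the endoplasmic reticulum, had a narrow vehicle range of 328 to 346 CPM. At 1 μg/kg it had 200, 213, 249, 199 and 194 CPM, all below that range. Fdps, the farnesyl diphosphate synthase of cholesterol synthesis, had 4.98 to 12.6 CPM in vehicle and 3.59 to 5.98 CPM at 1 μg/kg, with overlap. Mid1ip1, which promotes the activity of acetyl-CoA carboxylase, Acsl3, a long-chain acyl-CoA synthetase, and Acaa1b, a peroxisomal thiolase with the paralog Acaa1a, had differences of -0.66, -0.69 and -0.60 at 1 μg/kg.

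Amino acid, purine, steroid and drug metabolism held 11 members, with a median difference of -0.68 at 1 μg/kg and -3.27 at 30 μg/kg. Hsd3b5, a male-biased member of the hydroxysteroid dehydrogenase family whose members are alike in sequence, went furthest. Its level was 213, 178, 314, 295 and 194 CPM in vehicle, and 117, 59.0, 81.9, 87.7 and 223 CPM at 1 μg/kg. Of the 5 mice at 1 μg/kg, 4 lay below all vehicle mice and the remaining mouse lay within the vehicle range, with a mean 2.10-fold lower. At 10 μg/kg the values were 0.720, 0.277, 0.0521, 0.471 and 10.6 CPM, and at 30 μg/kg 3 of 5 libraries had no count. Sult2a8, a sulfotransferase acting on steroids and bile acids, was just inside the threshold at 1 μg/kg, with 764, 635, 670, 732 and 534 CPM in vehicle and 400, 403, 469, 512 and 422 CPM at 1 μg/kg. At 30 μg/kg it had 9.49, 2.08, 4.42, 2.82 and 3.12 CPM.

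Uox, the urate oxidase that degrades uric acid, had a difference of -0.60 at 1 μg/kg and -2.92 at 30 μg/kg. Amdhd1, an enzyme of histidine breakdown, had 385, 375, 336, 416 and 452 CPM in vehicle and 241, 277, 265, 254 and 259 CPM at 1 μg/kg, with no overlap. Csad, which makes the taurine precursor hypotaurine, went from 299 ± 83.5 CPM to 146 ± 50.1 CPM at 1 μg/kg (SD, n = 5), and its vehicle and 1 μg/kg ranges overlapped. Gm4952 had 166, 154, 151, 140 and 155 CPM in vehicle and 118, 118, 118, 110 and 106 CPM at 0.3 μg/kg. At 1 μg/kg its 5 mice had 85.4, 103, 75.9, 85.6 and 90.2 CPM, below all mice of both other groups. The sulfotransferase Sult1a1, the arylacetamide deacetylase Aadac, the N-acetyltransferase family member Nat8f1, the carbonic anhydrase Car14 and the alcohol dehydrogenase pseudogene Adh6-ps1 had differences between -0.87 and -0.60 at 1 μg/kg.

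Secreted proteins were the second largest group, with 13 members. Apoa1, the main apolipoprotein of high-density lipoprotein, had 6317, 6667, 7779, 7908 and 8388 CPM in vehicle and 3391, 4716, 3177, 2726 and 4025 CPM at 1 μg/kg. The groups did not overlap, and the mean went from 7412 ± 878 CPM to 3607 ± 777 CPM at 1 μg/kg and 809 ± 492 CPM at 30 μg/kg (SD, n = 5). Ttr, the carrier of thyroid hormone and retinol-binding protein, had 8549, 7597, 8350, 8374 and 9817 CPM in vehicle and 5791, 5787, 4870, 5201 and 5185 CPM at 1 μg/kg, again with no overlap. In whole liver, fewer hepatocytes and less RNA per hepatocyte cannot be told apart for these or any other members.

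Igfbp2, which binds insulin-like growth factors in plasma, had 558, 576, 601, 673 and 727 CPM in vehicle. At 1 μg/kg it had 205, 404, 201, 292 and 337 CPM, with no overlap and a mean 2.18-fold lower. Its mean was nearly the same at 1, 3 and 10 μg/kg (288, 272 and 272 CPM) and then 67.1 ± 40.1 CPM at 30 μg/kg. Cela1, tested above at the low doses, had 33.4, 36.5, 43.9, 25.0 and 27.1 CPM in vehicle and 8.12, 8.85, 8.38, 7.88 and 7.10 CPM at 1 μg/kg. Its mean was 4.11-fold lower at 1 μg/kg and 4.73-fold lower at 30 μg/kg. Prss2 was at 0 in all 5 libraries at 1 μg/kg and at 0 to 11 counts in vehicle, where Cela1 had 358 to 678 counts. Mouse 1 at 1 μg/kg had 2 counts of Cel and 1 of Cpa1.

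**Figure D3:**
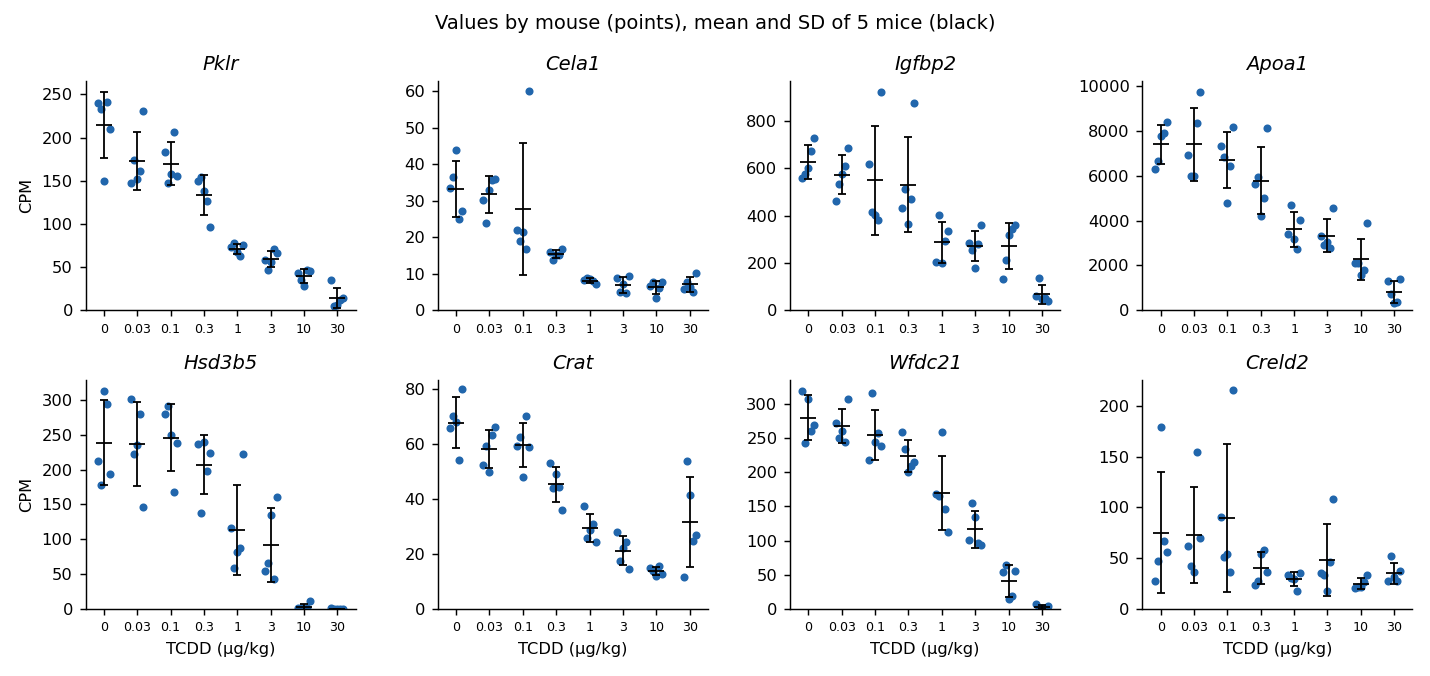
Level in CPM (y axis, from 0) against TCDD dose in μg/kg, in order (x axis), for 8 members. Blue points are single mice, and black bars are the mean and SD of 5 mice. Cela1 levels off from 1 μg/kg near 8.06 CPM, Hsd3b5 reaches 2.42 CPM at 10 μg/kg, and the wide spread of Creld2 includes 1 vehicle mouse at 179 CPM.

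Wfdc21, a small secreted protein of the whey acidic protein family, was among the 3 members with the largest further difference between 1 and 30 μg/kg. It had 320, 243, 308, 261 and 269 CPM in vehicle, 168, 165, 260, 146 and 113 CPM at 1 μg/kg, and 7.36, 0.333, 0.686, 0.476 and 4.64 CPM at 30 μg/kg. Apoc1, an exchangeable apolipoprotein, had a difference of -0.63 at 1 μg/kg and -2.32 at 30 μg/kg. Cxcl12 went from 404 ± 22.3 CPM to 257 ± 14.8 CPM, and its 5 mice at 0.3 μg/kg, between 255 and 337 CPM, already lay below all vehicle mice. Rarres2 (chemerin), Pglyrp2 (a peptidoglycan amidase), Ptgds (a prostaglandin D synthase), Serpine2 (a protease inhibitor), Kcp (a modulator of BMP signalling) and Vegfb (a growth factor) had differences between -0.83 and -0.61 at 1 μg/kg.

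Transporters and carriers were 6 members, with a median difference of -0.88 at 1 μg/kg. Slc30a10, which exports manganese, had 127, 110, 119, 91.1 and 90.8 CPM in vehicle and 66.1, 57.9, 62.7, 67.0 and 61.7 CPM at 1 μg/kg, with no overlap. The mitochondrial carriers Slc25a47 and Slc25a25 had differences of -0.88 and -0.76, the phosphate transporter family members Slc17a8 and Slc17a4 -1.07 and -0.88, and the chloride channel family member Clic3 -0.89.

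Protein folding in the endoplasmic reticulum was represented by 3 members, Sdf2l1, Creld2 and the oxidase Ero1lb, and Sdf2l1 and Creld2 varied widely between mice. Creld2 had 26.9, 46.7, 179, 66.5 and 56.4 CPM in vehicle and 33.4, 29.8, 29.1, 17.7 and 35.3 CPM at 1 μg/kg. The same 3 vehicle mice that were highest for Creld2 were highest for Sdf2l1, which had 30.9, 40.5, 112, 49.4 and 49.6 CPM in vehicle and 24.0, 20.7, 21.4, 19.1 and 29.4 CPM at 1 μg/kg. At 0.1 μg/kg, mouse 5, whose library held the pancreatic RNA, was highest for both with 216 and 133 CPM. Creld2 overlapped between vehicle and 1 μg/kg and Sdf2l1 did not. Ero1lb went from 106 to 65.9 CPM.

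Receptors, channels and signalling proteins formed the largest group, with 16 members, most of them at low levels. Hcn3, a cation channel subunit, had 13.4, 13.4, 8.61, 11.8 and 7.74 CPM in vehicle and 1.01, 2.45, 2.27, 0.991 and 1.97 CPM at 1 μg/kg, the largest difference of all members (-1.96). Its gene overlaps Pklr on the opposite strand. Reads that fall on exons of both genes went to the row of ambiguous reads, and elsewhere strand was not kept, so a read counted for Hcn3 cannot be assigned to a strand. Adgrf1, an adhesion G protein-coupled receptor, had 9.70, 11.5, 14.2, 14.1 and 8.95 CPM in vehicle and 4.21, 4.13, 3.09, 2.70 and 6.60 CPM at 1 μg/kg. Shank2, a scaffold protein, had 38.4, 38.3, 26.8, 36.4 and 34.7 CPM in vehicle and 13.8, 16.6, 10.1, 17.4 and 17.3 CPM at 1 μg/kg. None of these 3 genes overlapped between the groups, but this contrast chose them. All mice at 1 μg/kg lay below all vehicle mice for 3.13% of the genes tested.

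Of the receptors, Avpr1a, the vasopressin receptor of hepatocytes, went from 64.6 ± 10.5 CPM in vehicle to 40.3 ± 4.97 CPM at 0.3 μg/kg and 2.39 ± 2.32 CPM at 30 μg/kg (SD, n = 5). Paqr9, a progestin and adipoQ receptor family member, went from 460 to 248 CPM at 1 μg/kg. Chrna4, a nicotinic receptor subunit, had means of 26.4 ± 23.1 CPM in vehicle and 8.77 ± 2.68 CPM at 1 μg/kg, with overlap. Differences at 1 μg/kg were -0.71 for the adrenergic receptor Adrb3, -0.63 for the receptor kinase Grk5, -0.74 for the phosphodiesterase Pde4b and -0.64 for the salt-inducible kinase Sik1. Kalrn, Nrbp2, Mmd2, Arl4d, Spsb4 and Gprin3 completed the group, with differences between -0.80 and -0.61.

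Matrix, adhesion and membrane proteins were 11 members, with a median difference of -0.88 at 1 μg/kg. Tmem98, a membrane protein, had 8.31, 12.6, 13.7, 9.93 and 11.4 CPM in vehicle, 5.63, 5.32, 5.48, 4.46 and 4.34 CPM at 1 μg/kg and 4.44, 8.28, 4.39, 4.72 and 6.41 CPM at 30 μg/kg, so its difference was about as large at 1 as at 30 μg/kg. Susd4, a complement inhibitor with a male bias in liver, had 16.4, 17.5, 27.5, 34.8 and 30.8 CPM in vehicle and 8.24, 9.27, 14.1, 12.5 and 20.8 CPM at 1 μg/kg, with overlap, and at most 0.208 CPM at 30 μg/kg. Adam11, Adamts7, Fras1, Fam198a, Dact2, Gas1, Col27a1, Lama3 and Anks4b had differences between -1.09 and -0.60.

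Transcription factors, clock genes and DNA repair proteins were 10 members. Cry1, a repressor of the circadian clock, had 38.3, 30.5, 44.3, 33.1 and 39.9 CPM in vehicle, 16.3, 16.6, 15.9, 24.8 and 28.4 CPM at 1 μg/kg and 15.3, 23.1, 19.3, 31.9 and 18.3 CPM at 30 μg/kg. The groups at 0 and 1 μg/kg did not overlap. Nr1d1, the clock repressor REV-ERBα, ranged from 5.17 to 45.3 CPM in vehicle and from 5.12 to 20.6 CPM at 1 μg/kg, so its mean difference lay within the spread of the vehicle mice, and its gene overlaps Thra on the opposite strand. Bhlhe40, a clock-linked repressor, had 52.6 ± 29.0 CPM in vehicle and 31.4 ± 5.21 CPM at 1 μg/kg. Paxx, a factor of DNA end joining, went from 82.3 to 42.4 CPM and Shld2, a subunit of the shieldin complex, from 29.0 to 17.4 CPM. Pitx3, a homeobox factor, had 12.4, 22.6, 27.1, 18.9 and 18.3 CPM in vehicle and 13.2, 7.71, 14.8, 9.64 and 14.3 CPM at 1 μg/kg, with overlap, and no count in any library at 30 μg/kg. Lhx6, Tcea3, Zfp579, Zfpm1 and Pitx3 had differences between -0.99 and -0.62.

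Of the 3 immune genes, H2-Q1, a class I histocompatibility gene of a family with near-identical members, had 9.05, 8.90, 6.54, 13.5 and 15.1 CPM in vehicle and 2.55, 2.21, 1.95, 1.38 and 1.80 CPM at 1 μg/kg. Reads from its paralogs may be counted with it or lost, so its level is uncertain. The lectin Clec2d and the interferon-induced Ifi27 had differences of -0.70 and -0.62. Another 5 members were noncoding or unnamed, Gm2788, Gm15690, 1810008I18Rik, 9030616G12Rik and ENSMUSG00000118550, with differences between -0.93 and -0.70. Of all members, 87 were annotated as protein coding.

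**Figure D4:**
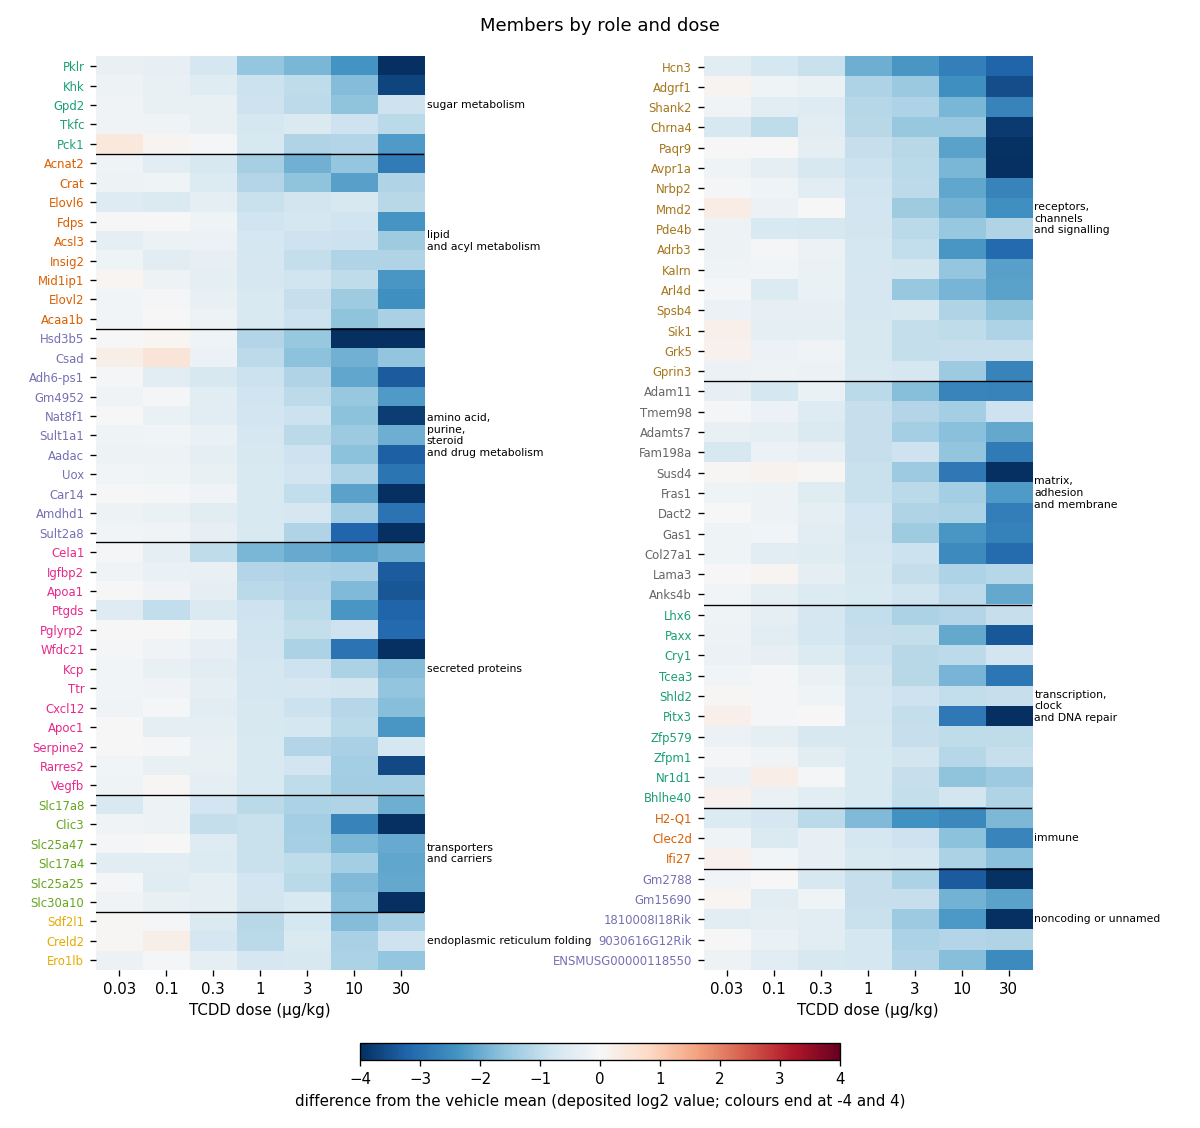
Difference from the vehicle mean in deposited log2 values (colour, ending at -4 and 4) for 92 of the 93 members (rows) at each TCDD dose in μg/kg (columns), grouped by role, with lines between roles and gene names coloured by role. Blue fields at 1 to 30 μg/kg follow from the rule, with medians from -0.76 to -2.32, and the columns at 0.03, 0.1 and 0.3 μg/kg did not enter it.

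Members differed most in what followed 1 μg/kg. From 1 to 30 μg/kg the further difference had a median of -1.50 and ran from -6.60 for Hsd3b5 to 0.26 for Creld2. After Hsd3b5 came Sult2a8 (-6.30) and Wfdc21 (-5.66), and at the other end stood Tmem98 (0.11) and Cry1 (0.08). The deposited scale gives a count of 0 the value 3.98, so differences of low-level genes at 30 μg/kg are compressed. The lowest group mean was at 30 μg/kg for 73 members, at 10 μg/kg for 16 and at 3 μg/kg for 4. Steps between doses had medians of -0.38 from 0.3 to 1 μg/kg, -0.25 from 1 to 3 μg/kg, -0.50 from 3 to 10 μg/kg and -0.71 from 10 to 30 μg/kg. By role, the median difference at 30 μg/kg was furthest for the 11 members of amino acid, purine, steroid and drug metabolism (-3.27) and least for the 10 transcription, clock and repair genes (-1.10).

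Separation between mice was counted on the CPM scale. At 1 μg/kg, 55 of the 93 members had all 5 mice below all 5 vehicle mice, against 3.13% of the 15373 genes tested. The members' count was 72 at 3 μg/kg (4.49% of genes), 82 at 10 μg/kg (10.1%) and 85 at 30 μg/kg (17.9%), and these contrasts chose the members. Among doses outside the rule it was 1 at 0.03 μg/kg (0.26%), 9 at 0.1 μg/kg (0.475%) and 17 at 0.3 μg/kg (0.969%), with the vehicle mice shared. Without mouse 5 at 0.1 μg/kg it was 10, against 0.761% of genes. By edgeR, 0 members were called lower than vehicle at 0.03 and 0.1 μg/kg (0.0% and 0.013% of genes tested) and 2 at 0.3 μg/kg (0.065%). At the doses of the rule, 47 members were called at 1 μg/kg (0.637% of genes tested), 75 at 3 μg/kg (2.22%), 92 at 10 μg/kg (8.13%) and 93 at 30 μg/kg (18.9%), and since these contrasts chose the members nothing is read from the latter counts. All 93 members stayed below 0 at 1, 3, 10 and 30 μg/kg with TMM, relative log expression and total count scaling. The rule had set that direction in the same mice, so nothing is read from it. At 1 μg/kg, 70 members lay at least 1.5-fold below vehicle with total counts alone, against 90 with TMM. With total counts alone the median log2 fold change of all genes was 0.09 at 1 μg/kg, 0.22 at 10 μg/kg and 0.52 at 30 μg/kg. With TMM it was 0, 0.01 and 0.03, so the members' fold changes at these doses are relative to the TMM scaling.

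The pathways around these members were followed through whole gene lists, with calls against vehicle at 1 μg/kg by edgeR, where 0.637% of genes tested were called lower and 2.15% higher. At 30 μg/kg the shares were 18.9% and 23.2%. The rule used these contrasts, and every gene of the pathway lists called lower at 1 μg/kg is a member (Pklr, Elovl6, Insig2, Amdhd1, Igfbp2 and Cry1), so these counts restate the choice of members and nothing is read from them. In the list of glucose and fatty acid synthesis, 3 of 26 tested genes were called lower at 1 μg/kg and 21 of 26 at 30 μg/kg, and 5 of them are members, among them Pklr, Elovl6, Insig2 and Pck1. The median log2 fold change of that list was -0.46 at 1 μg/kg. Cholesterol synthesis genes had 0 of 12 called lower at 1 μg/kg and 11 of 12 at 30 μg/kg, with Fdps as a member. Amino acid breakdown had 1 of 15 and 15 of 15, with Amdhd1 as a member. The growth hormone and IGF axis had 1 of 11 and 7 of 11, with Igfbp2 as a member. The circadian clock had 1 of 18 and 7 of 18, with Cry1 and Nr1d1 as members. The axis and the clock each had 2 genes called higher at 30 μg/kg. At 0.3 μg/kg against the lower doses no gene of these lists was called lower.

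Male-biased liver genes that depend on growth hormone had 0 of 20 called lower at 1 μg/kg and 19 of 20 at 30 μg/kg. At 30 μg/kg 1 was called higher, and the median log2 fold change of the list was -0.46 at 1 μg/kg. Of the male-biased genes, 3 are members, Hsd3b5, Susd4 and Pitx3. Female-biased genes had 3 of 13 called higher at 1 μg/kg and 7 of 13 at 30 μg/kg, where 2 were called lower, with no member. Organic ion and bile acid transporters had 0 of 15 called lower at 1 μg/kg and 10 of 15 at 30 μg/kg, with 1, Abcc3, called higher at 1 μg/kg, and terminal complement genes had 0 of 5 and 5 of 5, also without a member. AhR target genes, the induced reference, had 2 of 6 called higher at 0.03 μg/kg (0.0195% of genes tested) and 5 of 6 at 1 μg/kg, so induction was measured at doses below those that define the members.

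Markers of other liver cells moved with dose too. Of 7 markers of Kupffer cells and macrophages, 3 were called higher at 1 μg/kg and 7 at 30 μg/kg, and their summed level was 137 to 198 CPM in vehicle, 279 to 287 CPM at 1 μg/kg and 476 to 1143 CPM at 30 μg/kg. Markers of sinusoidal endothelial cells (6), stellate cells (6), cholangiocytes (5) and lymphocytes (5) had 0 called at 1 μg/kg, and 3, 4, 4 and 5 were called higher at 30 μg/kg, where 1 stellate and 1 cholangiocyte marker were called lower. The summed hepatocyte markers were 66180 to 86570 CPM at 1 μg/kg and 27690 to 58140 CPM at 30 μg/kg, and 2 of the 5 tested, Apoa1 and Ttr, are members themselves. Of the list for pancreas and adipose tissue, Cela1 and Plin1 were tested, Cela1 was called lower at 1 μg/kg, and Plin1 was not called. The part of these cells in the members' differences was not tested.

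Among the members, 4 pairs are direct neighbours among expressed genes. On chromosome 3, Fdps, Pklr and Hcn3 follow each other, and on chromosome 2, Paxx, Clic3 and Ptgds do. Pklr and Hcn3 overlap by 0.71 kb and Paxx and Clic3 by 4.26 kb, each pair on opposite strands. In all, 32 of 92 members placed on the GENCODE M21 annotation overlap another tested gene, 30 of them on the opposite strand. Reads on shared exons were left out as ambiguous, and the strand of the counted reads is not known. The overlapping gene had more CPM in vehicle than the member for 8 members, Hcn3, Clic3, Car14, Gm15690, Gm2788, Adamts7, Pitx3 and Grk5. For Pitx3 it was Elovl3 with 777 CPM, and for Gm15690 it was Sds with 70.8 CPM. Elovl3, another male-biased gene, is not a member, and its difference at 1 μg/kg was -0.53 beside -0.66 for Pitx3.

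**Figure D5:**
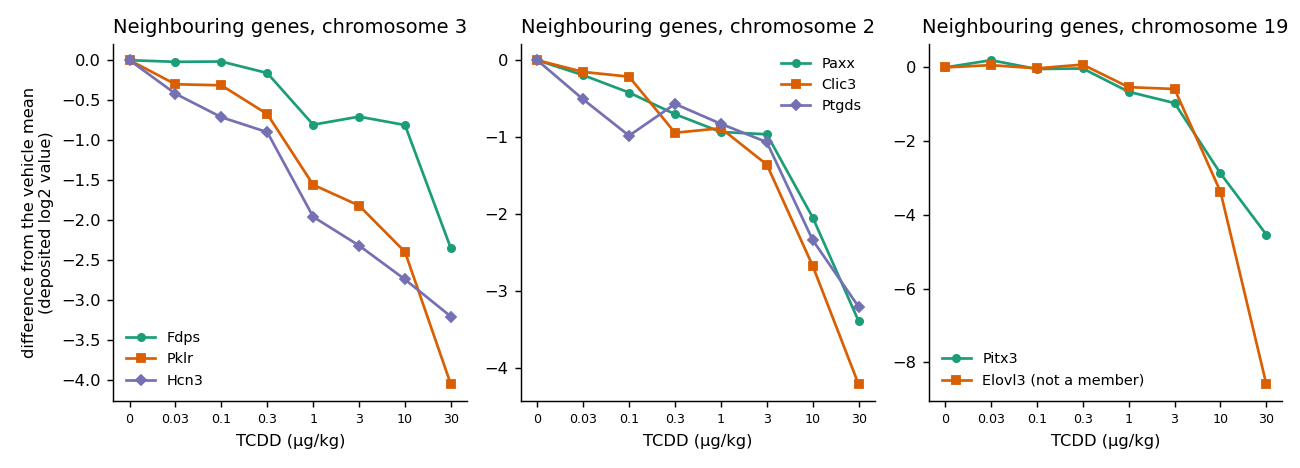
Difference from the vehicle mean in deposited log2 values (y axis) against TCDD dose in μg/kg, in order (x axis), for neighbouring members on chromosomes 3 and 2 and for Pitx3 with the overlapping gene Elovl3 on chromosome 19. Lines join group means of 5 mice. Pklr and Hcn3 go down side by side, and Pitx3 and Elovl3 are at -0.66 and -0.53 at 1 μg/kg.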

How the data were processed

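Hepatic RNA-Seq libraries of 40 mice, 5 in each of 8 groups taken from the labels, were analysed. Each library came from 1 mouse, so p-values measure the spread between mice. The authors deposited raw counts per gene as written by STAR, and a log2 table of 23120 genes. Per the submitters' processing notes, FastQC 0.11.7, Trimmomatic 0.39 and STAR 2.7.3a were used. These notes name both GRCm39 and mm10 without a role, so no coordinates were taken from the files. The deposited log2 values equal the blind variance-stabilizing transformation of DESeq2 on these counts within 5.03e-10, and list genes with a highest count of at least 5. The first-strand setting took 50.0% to 50.3% of stranded counts, so strand was not kept and unstranded counts were used. Genes took 71.3% to 80.8% of reads. Rows that name no gene (unmapped 2.47% to 11.3%, multimapping 5.24% to 7.43%, outside genes 3.34% to 7.36%, ambiguous 4.84% to 5.90%) were left out of library sizes. Paralogs that share sequence lose the multimapping reads.

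The rule was applied to the log2 table. The members and gene lists were chosen with earlier results of these data known. 1 member is not reported here by name or value, and all others are named. Values by mouse are given for the 10 protein-coding members with the largest difference at 1 μg/kg, for the 3 largest and 3 smallest further differences to 30 μg/kg, for members just inside the margin and, partly as ranges, in the lists, and for a few others chosen after their values were seen (Sdf2l1, Gm4952 and Slc30a10).

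The count test was edgeR 4.0.16 in R 4.3.3. After filterByExpr (minimum count 10, minimum total 15) 15373 genes remained, all 93 members among them. TMM scaling and a quasi-likelihood fit of all 40 libraries, with a mean for each dose, followed. The p-values were adjusted by Benjamini-Hochberg over all genes. CPM used TMM-scaled sizes. The study's empirical Bayes method, used with the same fold of 1.5, was not installed, so edgeR stands in for it. Alternatives were DESeq2 1.42.0, limma 3.58.1 on the deposited log2 values, other scalings and filters, the numbering run of the titles (up to 27, and from 28), the strand-specific column and leaving out each library. The steps were tested on simulated data. Each SD describes 5 mice, and each SE comes from edgeR.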

Additional observations from a re-analysis of the deposited data

Results flagged for a closer look

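In each group of 5 mice the highest or lowest value was set against the gap to its nearest neighbour, for 28 members and the mean over members (232 groups, deposited log2 scale). Chance flags about 1 in 20 groups, 11.6 of 232, and 18 were found. The mouse with the high Cela1 value at 0.1 μg/kg (10.09, others 8.36 to 8.67) is mouse 5, whose library held the pancreatic RNA. The same mouse was low for Insig2 (11.59, others 12.09 to 12.22). In mouse 4 at 0.1 μg/kg, Shank2 was high (9.39, others 8.64 to 8.81), Cry1 was low (8.53, others 9.08 to 9.28) and the mean over members was low (-0.359, others -0.22 to -0.17).

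Vehicle mouse 3 was low for Pklr (11.35, others 11.86 to 12.03) and for Shank2 (8.94, others 9.32 to 9.44). At 0.03 μg/kg, mouse 5 was high for Ttr (17.5, others 16.87 to 17.05) and for the mean over members (-0.0357, others -0.16 to -0.13). At 1 μg/kg, mouse 4 was low for Creld2 (8.39, others 9.05 to 9.32). Without mouse 4 at 1 μg/kg, 94 genes met the rule, of which 83 were members.

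At 3 μg/kg, mouse 5 was low for Hcn3 (4.36, others 5.55 to 5.92). At 10 μg/kg, mouse 5 was high for Hsd3b5 (7.74, others 4.32 to 5.22) and Susd4 (7.37, others 5.38 to 5.77) and low for Elovl6 (9.19, others 10.04 to 10.25). Also at 10 μg/kg, mouse 2 was low for Hcn3 (4.69, others 5.05 to 5.14) and high for Insig2 (11.50, others 11.22 to 11.29), and mouse 3 was low for Pitx3 (4.46, others 5.80 to 6.09). At 30 μg/kg, mouse 5 was low for Shank2 (5.92, others 6.72 to 6.92).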

How the results depend on the processing

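The rule gave 147 genes with a margin of 0.5 and 50 with a margin of 0.7. On group medians it gave 102, of which only 72 were members. With a vehicle minimum of 6 and 8 it gave 115 and 74. It gave 108 on log2 CPM with TMM and 63 with total counts alone, 62 of which were members. Leaving out each library in turn gave 88 to 110 genes, and 52 members met the rule in every such run. Mice with title numbers up to 27 alone gave 115 genes and later numbers 117, with 42 members in both. At 0.3 μg/kg against the lower doses no member was called, and 1, Cela1 in each case, was called with total counts alone, with no filter on low counts, with run and order as covariates and by DESeq2. Its adjusted p there was 0.0425, 0.0236, 0.00355 and 0.00484, and it ran from 0.00355 to 0.191 over 27 settings. Leaving out each low-dose library gave 0 to 1 calls. The 15 members at an unadjusted p under 0.05 became 26 in a fit of the 3 low doses alone, 30 with a slope on log10 dose and 8 to 16 on leaving out single libraries. Among all genes tested, 279 of 15373 were lower in the main fit and 310 of 13605 in the low-dose fit. With the slope it was 440 of 13605, and leaving out single libraries gave 249 to 324. Cela1 was called without mouse 2 at 0.03 μg/kg (adjusted p 0.0370) and without mouse 1, 2, 3 or 4 at 0.1 μg/kg (0.0486, 0.0302, 0.0412 and 0.0193). Every setting that called Cela1 kept mouse 5 at 0.1 μg/kg, whose library held the pancreatic RNA. In that comparison the members' median was -0.19 in the first run of titles, with 76 below 0, and -0.28 in the second, with 83 below 0, and 69 were below 0 in both, against 25.1% of genes with a vehicle mean of at least 7. The comparison of 0.1 with 0.03 μg/kg gave 0 member calls under all its alternatives, leaving out libraries included. No paired analysis was possible because the labels carry no replicate numbers that would tie a mouse of 1 group to a mouse of another. Libraries held 15.5 M to 21.0 M counts in genes, so members at 1 to 3 CPM, such as Hcn3 at 1 μg/kg, rest on few counts in each mouse.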
